A study of Homo sapiens with 11 samples.

Results

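Transcripts of 4 galectin genes (LGALS1, LGALS3, LGALS8 and LGALS9) and of LGALS3BP, which encodes galectin-3 binding protein, were followed in prostate cancer cells with and without overexpression of ST6GAL1. These 5 genes were taken by their Entrez identifiers, as lectins that bind galactose on ligands masked by alpha2,6 sialylation and a secreted glycoprotein that binds them, and not by how they changed. They are 5 of the 28395 genes counted in both lines. Both PC3 and DU145 are established human prostate cancer cell lines. Each was transduced with lentiviral particles that carried ST6GAL1 (the Lenti-ORF overexpression cells, written OE) or with negative control particles, and stable populations were sequenced as mRNA libraries. The libraries were 3 of PC3 control, 3 of PC3 OE, 3 of DU145 control and 2 of DU145 OE, the last numbered replicates 2 and 3. Apart from the transgene both populations of a line had therefore passed through a viral transduction, and the promoter that drives the transgene, and whether single clones were grown, are not given in the sources used here.

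Galectins are small lectins that are made in the cytosol, leave the cell without a signal peptide and bind galactose-containing sugars such as N-acetyllactosamine on glycoproteins. They cross-link these glycoproteins into lattices that influence adhesion, receptor turnover and the survival of T cells, and inside the cell galectin-3, galectin-8 and galectin-9 also bind sugars exposed by damaged lysosomes and endosomes. ST6GAL1 adds alpha2,6-linked sialic acid to terminal galactose on N-glycans, which blocks binding by galectin-1 and several other galectins, and for this reason the levels of the lectins themselves are of interest in cells where the enzyme was raised. RNA counts do not measure sialylation, protein or secretion.

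Counts on genes totalled between 13194485 and 18201359 per library, and a count of 3, taken as the floor, corresponded to between 0.165 and 0.227 CPM (counts scaled to library size), which covers counting error only. The labels were checked on ST6GAL1 itself, at 2.71 ± 0.538 normalized CPM for PC3 control (SD, n = 3) and 32.6 ± 0.814 in PC3 OE (SD, n = 3), and at 12.9 ± 1.45 in DU145 control (SD, n = 3) and 322.9 ± 35.2 in DU145 OE (SD, n = 2). The OE groups of the lines thus also differed in ST6GAL1 RNA. Wherever a change is compared between the lines below, cell line and the level of ST6GAL1 therefore cannot be told apart. The 5 epithelial markers summed to between 866 and 1330 CPM in every library, and KLK2, KLK3, CD3E and MS4A1 were at 0 throughout. The sum of the epithelial markers was between 1300 and 1330 CPM in the DU145 control and between 1050 and 1170 in the DU145 OE libraries, while it was 866 to 900 and 893 to 902 in PC3, and its part in the results was not tested. Most of this sum comes from keratin genes, so a steady sum does not mean that each marker was steady. The 2 DU145 OE libraries differed from each other more than any other replicate pair, with a chi-square per degree of freedom of 13.35 between their counts, against 1.39 to 5.47 for the other pairs.

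The windows of 250 bases before a RefSeq transcription start are shown for LGALS3BP and LGALS8, whose transcripts were higher in the OE libraries of both lines, and for LGALS3 beside them. Of 34943 such windows over all promoters, 6.87% held GAAANNGAA, the core of the element bound by interferon-activated factors, 6.56% held TTCNNNGAA, a STAT element, 10.8% held TATAAA and 42.5% held the GC box GGGCGG, each searched on both strands. No searched motif overlapped another in the windows printed. Capitals mark the matches, all 3 windows are written 5′ to 3′ on the strand of the gene, and the sequences are those of RefSeq on GRCh38.p14.
LGALS3BP (chr17:78979924-78980173, minus strand): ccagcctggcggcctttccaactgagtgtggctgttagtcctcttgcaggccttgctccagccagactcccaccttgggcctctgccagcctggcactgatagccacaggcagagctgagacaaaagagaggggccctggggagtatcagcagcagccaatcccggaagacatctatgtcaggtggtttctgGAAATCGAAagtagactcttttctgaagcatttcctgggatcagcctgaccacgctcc
LGALS8, most downstream of 3 listed starts (chr1:236523732-236523981, plus strand): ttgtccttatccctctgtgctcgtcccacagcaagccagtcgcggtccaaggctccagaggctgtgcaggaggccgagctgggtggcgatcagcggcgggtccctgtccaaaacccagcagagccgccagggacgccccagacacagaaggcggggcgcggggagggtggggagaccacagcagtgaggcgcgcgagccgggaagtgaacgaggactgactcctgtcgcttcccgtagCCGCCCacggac
LGALS3 (chr14:55129002-55129251, plus strand): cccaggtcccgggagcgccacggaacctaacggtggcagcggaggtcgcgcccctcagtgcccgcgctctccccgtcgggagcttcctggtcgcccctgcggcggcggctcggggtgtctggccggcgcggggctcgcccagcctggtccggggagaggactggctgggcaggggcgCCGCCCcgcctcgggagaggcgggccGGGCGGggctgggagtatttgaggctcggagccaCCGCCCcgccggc
The LGALS3BP window held 1 match to GAAANNGAA, 58 bases before the start, and none of the other 3 motifs. The LGALS3 window held the GC box in 3 places, 73, 47 and 13 bases before the start, and the LGALS8 window held it once, 12 bases before the start. The most upstream LGALS8 window held TATAAA on the opposite strand at 233 and 59 bases before its start, and the windows of the middle LGALS8 start and of LGALS9 held none of the 4 motifs. A match is a description of the letters only.

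The levels of the 5 genes spanned a wide range, and one lectin dominated. Levels of different genes were compared as CPM per kilobase of exon, since a longer transcript yields more reads. In PC3 control cells LGALS1 was at 378.2 ± 8.57 CPM per kilobase (SD, n = 3), LGALS3 at 29.2 ± 0.785, LGALS3BP at 6.57 ± 0.559, LGALS8 at 3.92 ± 0.254 and LGALS9 at 0.0207 ± 0.0197. In DU145 control cells LGALS1 was again the highest, at 269.5 ± 11.4 CPM per kilobase (SD, n = 3), followed by LGALS3 at 40.6 ± 0.893. There LGALS8 stood at 4.11 ± 0.194 CPM per kilobase and LGALS3BP at 2.75 ± 0.334, the opposite order to PC3. Averaged over the control and OE libraries of a line, the CPM of LGALS1 was at or above that of 97.7% of genes tested in PC3. In DU145 the value was 94.1%, and this ranking does not take length into account. LGALS9 was close to the limit of detection in both lines.

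Of the CPM per kilobase summed over the 4 galectin genes, LGALS1 made up 91.9% ± 0.155 in PC3 control (SD, n = 3) and 91.3% ± 0.0878 in PC3 OE (SD, n = 3). In DU145 its share was 85.7% ± 0.381 in control (SD, n = 3) and 74.5% ± 3.06 in OE (SD, n = 2). The share of LGALS3 was 12.9% ± 0.311 in DU145 control and 22.6% ± 2.49 in DU145 OE, and 7.10% ± 0.190 and 7.33% ± 0.0593 in the PC3 groups. The DU145 OE libraries therefore held the lowest LGALS1 shares and the highest LGALS3 shares of all 11. A share also rises when another gene falls. From DU145 control to OE, LGALS1 went from 269.5 to 156.1 CPM per kilobase and LGALS3 from 40.6 to 46.9, and LGALS3 was not called. The ratio of LGALS1 to LGALS3 per kilobase was 13 ± 0.373 in PC3 control and 12.5 ± 0.111 in PC3 OE. In DU145 it was 6.63 ± 0.191 in control against 3.32 ± 0.502 in OE. These shares and ratios carry no offset for GC content, which is described further on. With that offset the log2 difference of LGALS1 between the control lines was 0.02, against -0.49 without it. Its log2 fold change in DU145 OE was then -0.59, against -0.78.

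**Figure D1:**
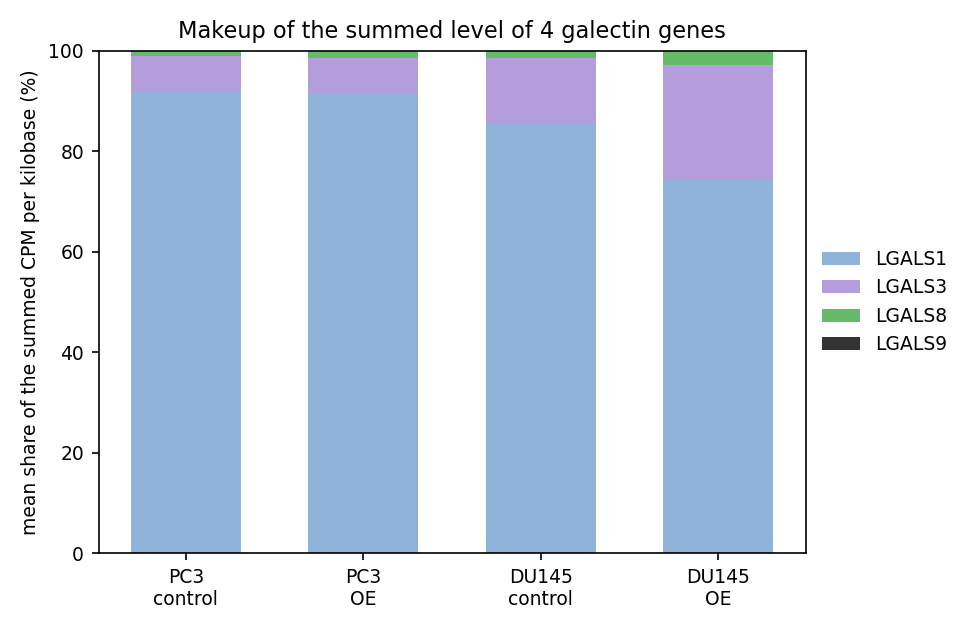
Mean share (%) of each of 4 galectin genes in their summed CPM per kilobase, as stacked bars for the 4 groups (OE, ST6GAL1 overexpression). No offset for GC content was applied. LGALS1 makes up 85.7% in DU145 control, 74.5% in DU145 OE, and 91.9% and 91.3% in the PC3 groups, while LGALS9 is too low to be seen.

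Whether the lectins changed with the enzyme was asked within each line, with edgeR's quasi-likelihood test over all genes that passed its expression filter. A gene was called when its Benjamini-Hochberg adjusted p was under 0.05 and its absolute log2 fold change over 0.58. LGALS3BP was called higher in both lines and LGALS1 was called lower in DU145 only, a difference between the lines that was itself tested and is given with LGALS1. LGALS8 was higher in both lines by an amount just under the fold change threshold, LGALS3 was not called in either, and LGALS9 was too low to be tested. In PC3, 1 of the 4 members tested was called, where 5.38% of 13544 genes were, 3.61% as higher and 1.76% as lower. In DU145, 2 of the 4 were called, where 8.94% of 13676 genes were, 4.33% as higher and 4.61% as lower. The OE and control libraries did not overlap for 2 of the 4 members in PC3, against 46.2% of all genes, and for all 4 in DU145, against 48.3% of all genes. The median log2 fold change over all genes was 0.00 in both lines. In such bulk samples fewer cells that make a transcript and less of it per cell cannot be told apart. These p-values measure the spread between libraries that the labels call biological replicates, and nothing more is said there of how the cultures were separated. Whether the replicates of a group came from separate transductions is not given in the sources used here. If they did not, ST6GAL1 and other differences between the control and OE populations of a line cannot be told apart.

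**Figure D2:**
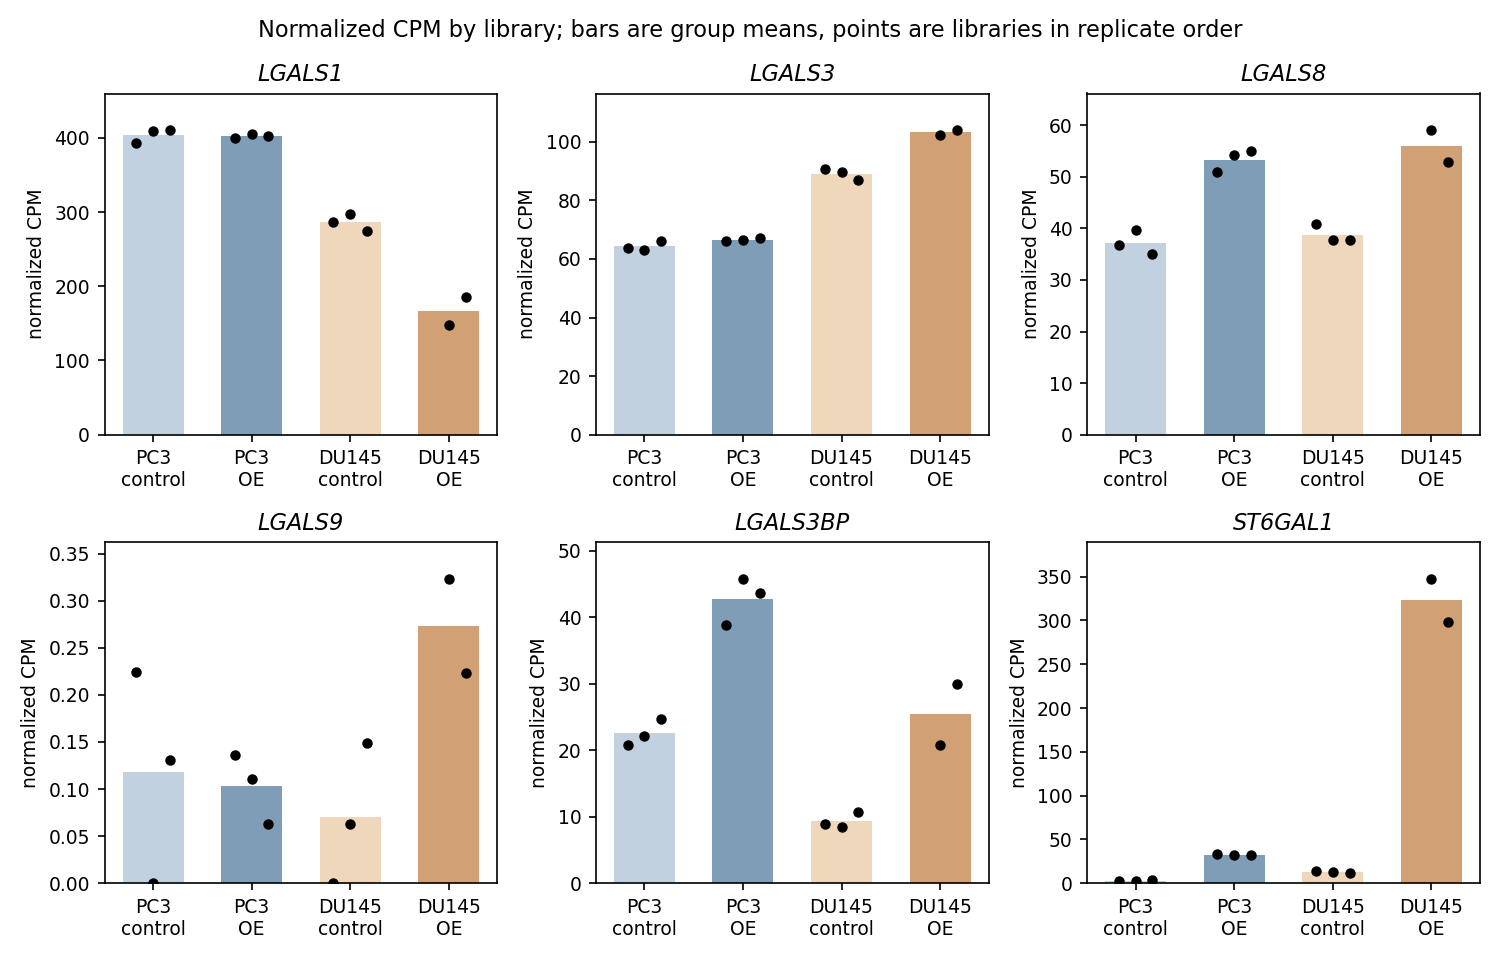
Normalized CPM (vertical axes from 0, a scale for each gene) of the 5 genes and of ST6GAL1 in each library, with bars for group means and points for libraries in replicate order. LGALS3BP and LGALS8 sit higher in every OE library than in any control library of the line, LGALS1 is lower only in the DU145 OE libraries, and LGALS9 stays under 0.35 CPM.

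LGALS3BP (chr17:78971255-78979923 on GRCh38) encodes a heavily glycosylated secreted protein of the scavenger receptor family, found in serum and matrix, that binds galectin-3, galectin-1 and integrins. In PC3 control libraries 1 to 3 it was read at 20.8, 22.1 and 24.7 normalized CPM, and in the OE libraries at 38.8, 45.8 and 43.7. Every PC3 OE library lay above every control library. The rise was 1.91-fold, a log2 fold change of 0.94 (95% interval 0.80 to 1.07, SE 0.065, edgeR quasi-likelihood adjusted p = 2.77e-15). In DU145 control libraries it was read at 8.89, 8.53 and 10.7 normalized CPM, and in OE libraries 2 and 3 at 20.8 and 30.0, on counts of 322 and 538. Both OE libraries exceeded all 3 controls, and the second of them was the higher. The rise was 2.73-fold, a log2 fold change of 1.45 (95% interval 1.08 to 1.81, SE 0.166, edgeR quasi-likelihood adjusted p = 0.000133). It ranked 250 from the largest rise among 13544 genes in PC3 and 138 among 13676 in DU145, and in either line 2.56% of genes had a larger absolute change.

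The difference between the lines in the rise of LGALS3BP, DU145 minus PC3, was 0.52 on the log2 scale (95% interval 0.10 to 0.95, edgeR quasi-likelihood adjusted p = 0.0824), where 19.7% of 14952 genes passed an adjusted p of 0.05. That call depended on a DU145 OE library: without replicate 2 the difference was 0.74 and passed (edgeR adjusted p = 0.000165), and without replicate 3 it was 0.21 (edgeR adjusted p = 0.316). In control cells LGALS3BP was lower in DU145 than in PC3 by a log2 fold change of -1.26 (95% interval -1.58 to -0.95, edgeR adjusted p = 1.45e-06), a comparison in which 64.9% of the 14952 genes were called and in which cell line and handling cannot be told apart. Ordered by level, PC3 OE came first, then DU145 OE and PC3 control, which did not differ beyond their spread (log2 difference 0.19, 95% interval -0.11 to 0.48, edgeR adjusted p = 0.22), and then DU145 control.

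LGALS1 (chr22:37675636-37679802) encodes galectin-1, which acts as a dimer, induces death of activated T cells and loses its binding where alpha2,6 sialic acid caps the sugar. PC3 control libraries held 393.1, 409.3 and 410.6 normalized CPM and PC3 OE libraries 400.0, 405.5 and 402.0. The OE values all lay within the range of the controls. The log2 fold change was -0.01 (95% interval -0.06 to 0.05, SE 0.026, edgeR quasi-likelihood adjusted p = 0.884). DU145 control libraries held 286.9, 298.1 and 274.5 normalized CPM, and OE libraries 2 and 3 held 147.6 and 185.6. Both OE libraries were below every control. LGALS1 was 1.72-fold lower in DU145 OE, a log2 fold change of -0.78 (95% interval -0.99 to -0.57, SE 0.0962, edgeR quasi-likelihood adjusted p = 0.000117), which placed it 611 from the largest fall among 13676 genes. The difference between the lines was -0.78 (95% interval -0.98 to -0.58, edgeR quasi-likelihood adjusted p = 1.48e-05), where 19.7% of 14952 genes passed an adjusted p of 0.05. In control cells LGALS1 was lower in DU145 than in PC3 by a log2 fold change of -0.49 (edgeR adjusted p = 1.15e-06), under the fold change threshold. The order of levels was PC3 control and PC3 OE, which did not differ beyond their spread, then DU145 control, then DU145 OE. The step between the control lines depended on GC content: with the offset for GC described further on it was 0.02.

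**Figure D3:**
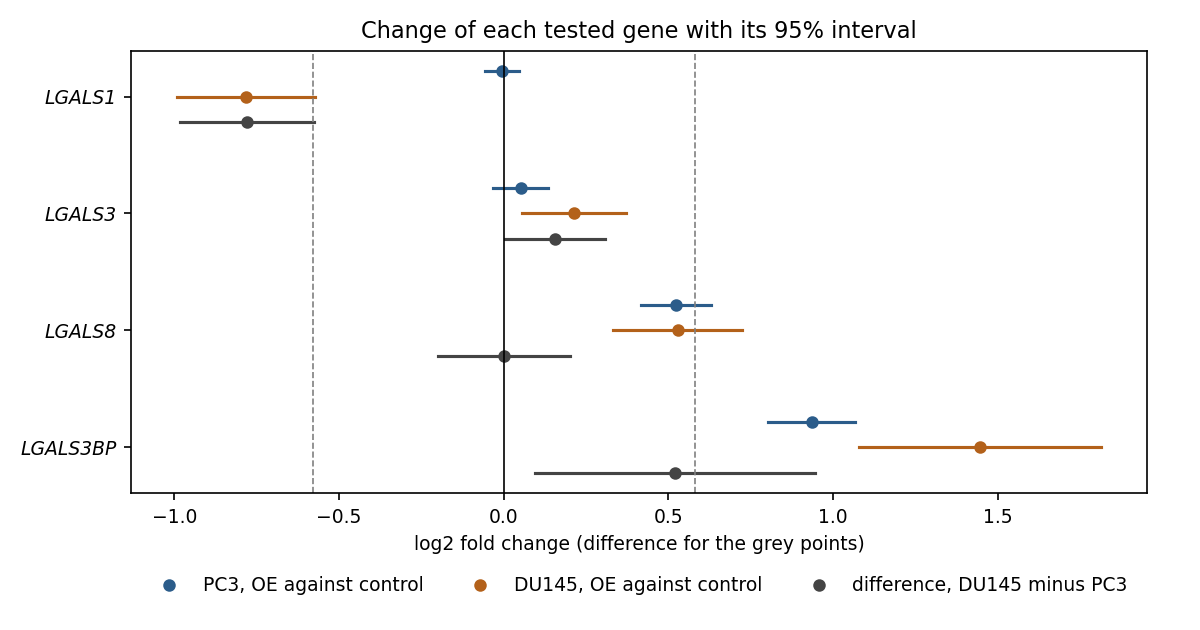
Log2 fold change, OE against control (points), with its 95% interval (lines) for the 4 tested genes in PC3 and DU145, and the difference between the lines (DU145 minus PC3). Dashed lines mark the fold change threshold of 0.58 in either direction. LGALS8 has nearly the same point in both lines, LGALS1 departs from 0 in DU145 only, and LGALS3BP is past the threshold in both.

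LGALS8 (chr1:236518214-236552981) encodes galectin-8, a lectin with a pair of different sugar-binding domains. The one at its amino end prefers alpha2,3-sialylated sugars, and the protein recruits NDP52 to damaged vacuoles. PC3 control libraries held 36.7, 39.8 and 35.0 normalized CPM and PC3 OE libraries 51.0, 54.2 and 54.9. DU145 control libraries held 40.9, 37.7 and 37.7 normalized CPM and OE libraries 2 and 3 held 59.1 and 52.9. In both lines all OE libraries lay above all controls. The log2 fold change was 0.52 in PC3 (95% interval 0.42 to 0.63, SE 0.052, edgeR quasi-likelihood adjusted p = 6.15e-11) and 0.53 in DU145 (95% interval 0.33 to 0.73, SE 0.0917, edgeR quasi-likelihood adjusted p = 0.00102). Each passed the adjusted p and missed the fold change threshold of 0.58, which the DU145 value passed, at 0.61, without OE replicate 3. The difference between the lines was 0.00 (95% interval -0.20 to 0.20, edgeR adjusted p = 1). The controls of the lines did not differ beyond their spread either (log2 difference 0.07, 95% interval -0.08 to 0.21, edgeR adjusted p = 0.347), nor did the OE groups (0.07, 95% interval -0.08 to 0.22, edgeR adjusted p = 0.367). The 4 groups thus formed a lower pair of controls and an upper pair of OE groups.

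Reads at LGALS8 may not all be its own. With genes on the opposite strand it shares 2095 exon bases (HEATR1), 425 (LGALS8-AS1) and 341 (ENSG00000230325). The sources used here do not say whether strand was used in counting. HEATR1, a ribosome biogenesis factor, was at 102.1 normalized CPM in PC3 control and 87.7 in DU145 control, where LGALS8 was at 37.2 and 38.8. Its log2 fold change was 0.00 in PC3 (edgeR adjusted p = 0.95) and 0.20 in DU145 (edgeR adjusted p = 0.114). LGALS8-AS1 had 25 counts over all PC3 libraries and 53 over all DU145 libraries, against 1818 for LGALS8 in the PC3 controls alone.

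LGALS3 (chr14:55129252-55145430) encodes galectin-3, the galectin with a collagen-like tail that forms pentamers and the partner for which LGALS3BP is named. In PC3 the control libraries held 63.7, 63.0 and 66.3 normalized CPM and the OE libraries 66.1, 66.6 and 67.2, and these ranges overlapped. The log2 fold change was 0.05 (95% interval -0.03 to 0.14, edgeR quasi-likelihood adjusted p = 0.358). In DU145 the control libraries held 90.6, 89.7 and 86.9 normalized CPM and the OE libraries 102.4 and 104.0. Both OE values exceeded the controls, and the log2 fold change was 0.21 (95% interval 0.06 to 0.37, SE 0.0736, edgeR quasi-likelihood adjusted p = 0.0565). A larger absolute change was seen in 45.2% of the DU145 genes. When all 11 libraries shared 1 estimate of the spread, the value was 0.21 with an adjusted p of 0.00615 from edgeR, still under the fold change threshold. The difference between the lines was 0.16 (95% interval 0.00 to 0.31, edgeR adjusted p = 0.145). Control DU145 cells held more LGALS3 than control PC3 cells, by a log2 fold change of 0.48 (edgeR adjusted p = 2.26e-08), again under the fold change threshold. The order of levels was DU145 OE, DU145 control, and then the 2 PC3 groups, which did not differ beyond their spread.

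LGALS9 (chr17:27631188-27649560) encodes galectin-9, a ligand of the T cell receptor TIM-3. It had counts of 4, 0 and 2 in PC3 control, 2, 2 and 1 in PC3 OE, 0, 1 and 2 in DU145 control, and 5 and 4 in DU145 OE. Both DU145 OE libraries exceeded the 3 controls, at a depth where a few reads decide the order, and in PC3 the groups overlapped. The ratio of depth-adjusted counts, OE to control, was 0.832 in PC3 (5 against 6 counts, exact conditional 95% interval 0.201 to 3.27) and 3.91 in DU145 (9 against 3 counts, 95% interval 0.975 to 22.4). Both intervals hold a ratio of 1 and cover counting error only. The near-identical copies LGALS9B and LGALS9C had at most 1 count each in a line. LGALS9 also shares 294 exon bases on its own strand with another annotated gene, ENSG00000266728. Whether reads shared with these genes went uncounted is not given in the sources used here, so the low counts of LGALS9 are uncertain.

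**Figure D4:**
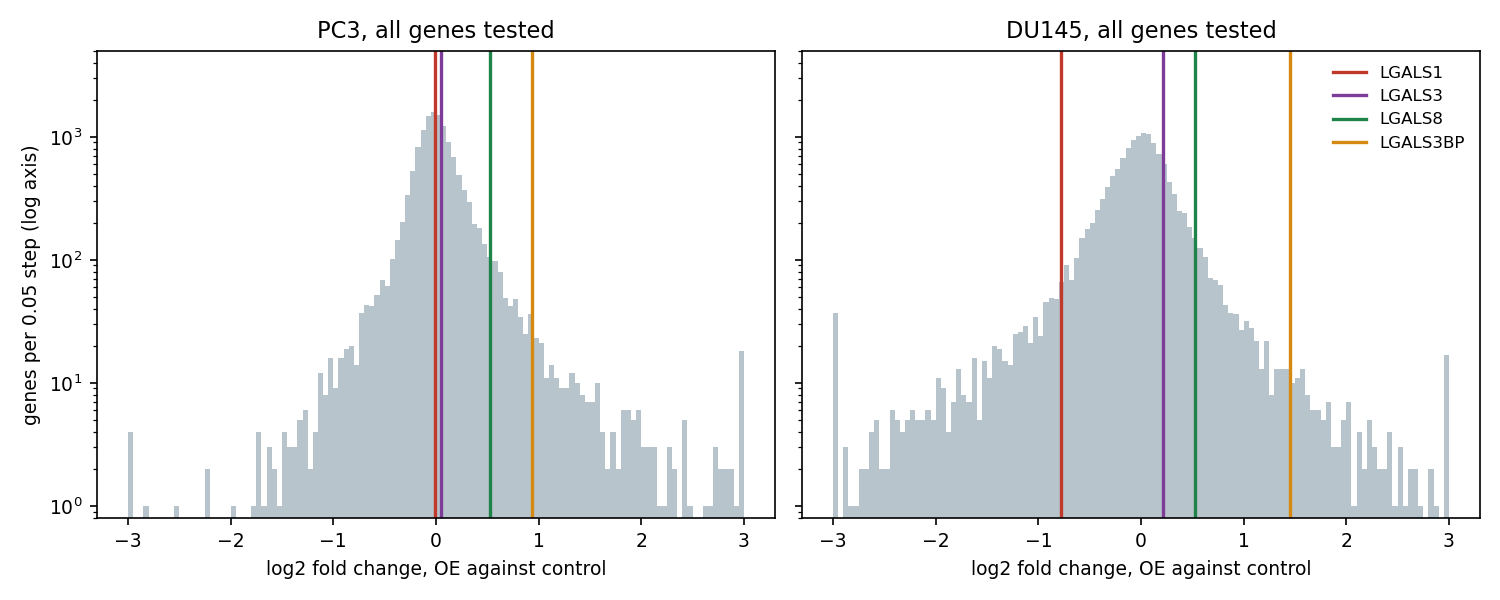
Number of genes (log axis) by log2 fold change, OE against control, for all genes tested in PC3 and in DU145, with a coloured line at each tested member. Genes past 3 in either direction are counted in the end bars. LGALS3BP lies in the upper tail in both panels and LGALS1 moves from the centre in PC3 into the lower tail in DU145.

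GC content moved with the DU145 results and is given beside them. Of the tested genes 97.5% had a GC content for their longest transcript, and they were divided into 5 bins of equal size. In DU145 the median log2 fold change was 0.07 in the bin lowest in GC and -0.24 in the highest, whereas in PC3 the medians ran from -0.03 to 0.04. Between the DU145 OE libraries, replicate 2 minus replicate 3, the median log2 difference was 0.14 in the lowest bin and -0.41 in the highest. LGALS1 (60.4% GC) and LGALS3BP (61.2% GC) belong to that highest bin, and between the same 2 libraries they differed by -0.33 and -0.51. LGALS8 (41.4% GC) and LGALS3 (46.5% GC) differed by 0.16 and -0.02. The members thus differed between these libraries in the direction of genes of like GC content, except LGALS3, whose bin had a median of 0.05. With bins by transcript length, the median log2 fold change in DU145 was -0.08 in the shortest bin and 0.09 in the longest. In PC3 these were -0.01 and 0.01. LGALS1 (637 bases) and LGALS3 (1734 bases) lay in the shortest bin and LGALS8 (6420 bases) in the longest, with LGALS3BP (2202 bases) between. The part of length in the results was not tested.

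Each DU145 result was also taken with only 1 OE library, which was then assumed to vary like the other libraries. With replicate 3 alone the log2 fold change was -0.64 for LGALS1, 0.22 for LGALS3, 0.44 for LGALS8 and 1.68 for LGALS3BP, and with replicate 2 alone it was -0.96, 0.20, 0.61 and 1.16. LGALS1 and LGALS3BP were called either way.

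With an offset for GC content fitted in each library, an alternative added after the values were seen, LGALS1 was lower in DU145 OE by a log2 fold change of -0.59 (SE 0.063, edgeR quasi-likelihood adjusted p = 1.2e-05), still past the threshold of 0.58. LGALS3BP was higher by 1.66 in DU145 (SE 0.0995, edgeR adjusted p = 5.63e-08) and by 0.90 in PC3 (edgeR adjusted p = 2.75e-19). LGALS8 was higher by 0.45 in DU145 (edgeR adjusted p = 0.000194) and 0.55 in PC3 (edgeR adjusted p = 1.14e-14), and LGALS3 by 0.16 in DU145 (edgeR adjusted p = 0.0432). With the offset the difference between the lines was -0.54 for LGALS1 (edgeR adjusted p = 1.72e-07) and 0.78 for LGALS3BP (edgeR adjusted p = 1.72e-05), so that the LGALS3BP difference passed. The difference in LGALS1 between the control lines, -0.49 without the offset, was 0.02 with it (edgeR adjusted p = 0.64), and that of LGALS3BP, -1.26, was -0.67.

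**Figure D5:**
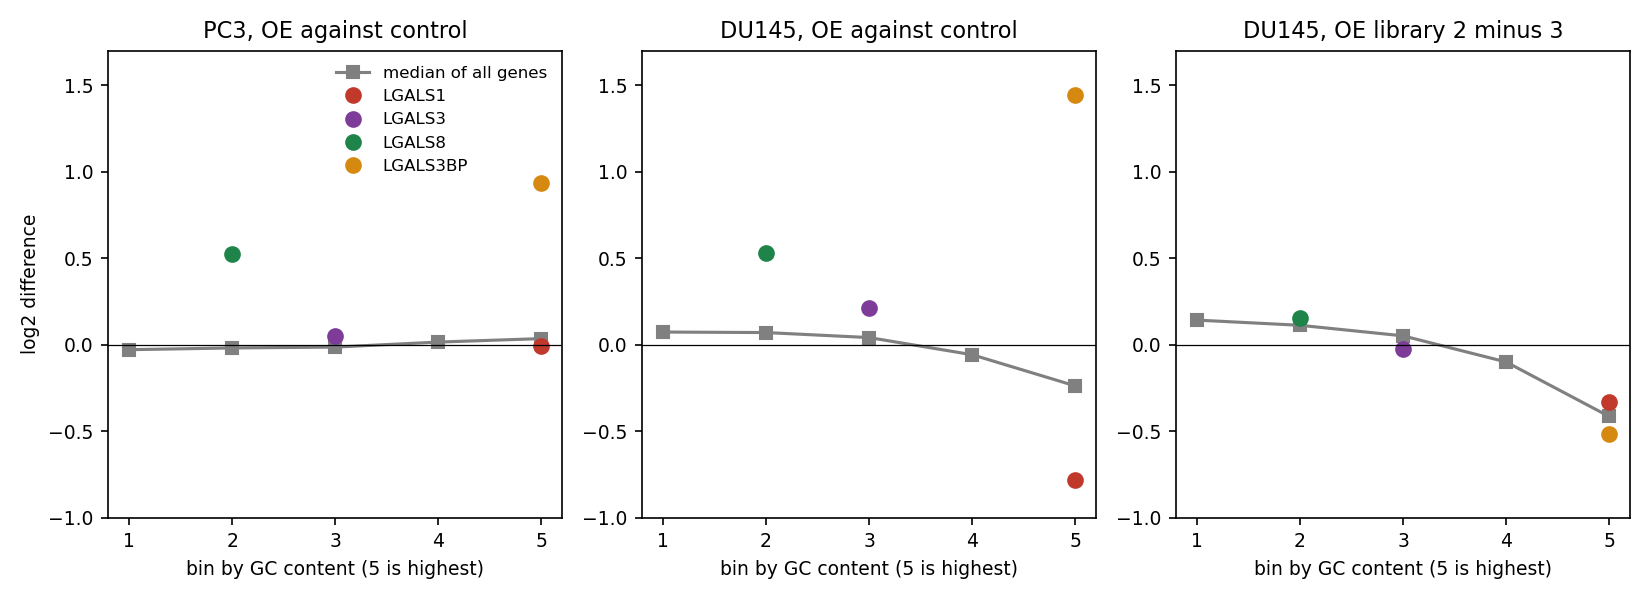
Log2 difference for the median gene (grey) in each of 5 bins by GC content, with the 4 tested members at their own bins, for OE against control in PC3 and DU145 and for the DU145 OE libraries 2 minus 3. The grey line is near flat in PC3 and reaches -0.24 and -0.41 in the highest bin of the DU145 panels, where LGALS1 (-0.78) and LGALS3BP (1.45) lie on either side of it in the middle panel.

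The changes were also set beside those of the genes nearby on the chromosome, 25 tested genes on each side. In DU145 the 50 neighbours of LGALS3BP, of which 35 were lower, had a median log2 fold change of -0.21, and none rose as much as LGALS3BP. In PC3 their median was 0.02, and 1 rose more. The 50 neighbours of LGALS1 had a median of -0.10 in DU145 and 1 of them fell more. For LGALS3 in DU145, 44 of the 50 neighbours were higher and their median of 0.23 was close to its own 0.21. For LGALS8 the medians were 0.08 in both lines, with 4 neighbours in PC3 and 8 in DU145 that rose more.

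Genes whose levels ran most nearly parallel to each member were listed by the Pearson correlation of log2 CPM, centred within each line, over 11 libraries and 12367 genes. The points share the same libraries and the contrast between OE and control, so that these coefficients are descriptions. LGALS1 was most like FBLN1 (0.990), which encodes the matrix protein fibulin-1, CHCHD2 (0.990) and the tubulin gene TUBB4B (0.988). For LGALS3BP the nearest were QSOX1 (0.989), a secreted sulfhydryl oxidase, AHNAK2 (0.984) and the death receptor gene TNFRSF21 (0.969). LGALS8 was nearest to TP53INP1 (0.986), ALDH3A2 (0.986) and CD55 (0.980), a complement inhibitor, and LGALS3 to DDIT4 (0.972), CTSC (0.964) and the integrin gene ITGB8 (0.963). Among the members, LGALS3BP and LGALS8 had a coefficient of 0.892 and LGALS1 and LGALS3 one of -0.855.

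Few reads were counted on the rest of the galectin family, apart from LGALSL. Of 12 other galectin genes in the files only LGALSL, a galectin-like gene without lectin activity, passed the expression filter, and none of its group was called in either line. LGALSL stood at 20.3 ± 0.786 normalized CPM for PC3 control and 22.8 ± 0.321 in PC3 OE (SD, n = 3 each; log2 fold change 0.17, edgeR adjusted p = 0.0479), and at 32.7 ± 0.358 in DU145 control (SD, n = 3) and 30.6 ± 2.13 in DU145 OE (SD, n = 2; log2 fold change -0.10, edgeR adjusted p = 0.514). Each of the other 11 had at most 12 counts in a group, the most being those of LGALS4. How reads shared between near-identical genes were counted is not given in the sources used here, so a count of 0 need not mean absence.

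Glycoproteins that galectins bind gave 3 calls in PC3 and 4 in DU145, each of 20 tested, beside 5.38% and 8.94% of all genes. Of 20 tested members of this list in PC3, 2 were called higher and 1 lower, with a median log2 fold change of -0.03. FN1, which encodes fibronectin, rose in normalized CPM from 431.9 ± 10.4 to 830.7 ± 21.4 (SD, n = 3 each; log2 fold change 0.94, edgeR adjusted p = 2.57e-29), and CSPG4, a chondroitin sulfate proteoglycan, fell from 22.9 ± 2.96 to 12.0 ± 1.22 (log2 fold change -0.92, edgeR adjusted p = 4.06e-11). In DU145, 4 of 20 were called higher and 0 lower, with a median of 0.24. CD44, the hyaluronan receptor, rose from 136.7 ± 3.63 (SD, n = 3) to 248.7 ± 15.3 (SD, n = 2; log2 fold change 0.86, edgeR adjusted p = 2.36e-06), and MCAM, an adhesion molecule, from 29.2 ± 0.809 to 59.1 ± 5.82 (log2 fold change 1.02, edgeR adjusted p = 4.69e-06). In PC3 the same 2 genes had log2 fold changes of -0.21 and -0.50, and the differences between the lines were 1.06 for CD44 (edgeR adjusted p = 1.34e-09) and 1.52 for MCAM (edgeR adjusted p = 4.15e-10).

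Enzymes that build or cap galectin ligands were called in 1 of 23 cases in PC3, where 5.38% of all genes were called. That case was ST6GAL1 itself, and the median of the list was 0.07. In DU145, 3 of 23 were called, all higher, with a median of 0.02, where 4.33% of all genes were called higher. One of these calls was the transgene itself. Beside ST6GAL1 they were B4GALT1 and B4GALT5, which add galactose to growing sugar chains. B4GALT1 rose in normalized CPM from 359.2 ± 7.73 (SD, n = 3) to 545.7 ± 8.31 (SD, n = 2; log2 fold change 0.60, edgeR adjusted p = 4.5e-05), against a log2 fold change of 0.05 in PC3 (edgeR adjusted p = 0.375), and the difference between the lines was 0.55 (edgeR adjusted p = 7.56e-06). Intracellular partners of galectins gave 0 calls of 12 tested in PC3 (median 0.03) and 0 of 11 in DU145 (median 0.02). Of all genes 5.38% and 8.94% were called, and on lists this short 0 calls cannot be told from those shares.

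LGALS3BP and LGALS9 are known to be induced by interferon, and 20 interferon stimulated genes were read beside them. In PC3, 18 were tested, 8 were called higher and 0 lower, where 3.61% and 1.76% of all genes were, and the median log2 fold change was 0.51. IRF9, a subunit of the interferon-activated factor ISGF3, rose in normalized CPM from 23.9 ± 0.448 to 38.7 ± 3.00 (SD, n = 3 each; log2 fold change 0.70, edgeR adjusted p = 1.75e-12), and OAS2, an antiviral synthetase, rose from 4.41 ± 0.483 to 9.96 ± 0.491 (log2 fold change 1.18, edgeR adjusted p = 1.31e-10). In DU145, 15 were tested, 5 were called higher and 2 lower, where 4.33% and 4.61% of all genes were, with a median of 0.28. IFIT2 rose from 13 ± 1.74 (SD, n = 3) to 36.0 ± 8.51 (SD, n = 2; log2 fold change 1.47, edgeR adjusted p = 0.00021), and OAS3 fell from 46.6 ± 2.69 to 22.5 ± 4.40 (log2 fold change -1.05, edgeR adjusted p = 4.64e-05). IRF9 and OAS2, called in PC3, had log2 fold changes of -0.01 and 0.07 in DU145. The differences between the lines were -0.71 for IRF9 (edgeR adjusted p = 0.000294) and -1.11 for OAS2 (edgeR adjusted p = 0.0381). IFITM1, named after its values were seen, was called higher in both lines, with log2 fold changes of 1.36 in PC3 (edgeR adjusted p = 1.03e-08) and 1.81 in DU145 (edgeR adjusted p = 0.00418). Its reads in DU145 were few, 20 over the control libraries (0.448 normalized CPM) and 53 over the OE libraries (1.61 normalized CPM). This list was written with the rise of such genes in these PC3 data already known and is no independent evidence of direction.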

How the data were processed

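RNA from PC3 and DU145 cells was sequenced as single reads, and the authors used Galaxy to trim (Cutadapt), align to hg38 (HISAT2) and count reads by gene (featureCounts). The submitters' processing notes also name FastQC and limma. The kit keeps strand, but the strand setting and the annotation used for counting are not given in the sources used here. The values the authors deposited are raw counts of 28395 Entrez genes, without normalization, in 11 libraries. Symbols and coordinates came from RefSeq on GRCh38.p14, which matched 97.7% of identifiers. The promoter of LGALS1 is not analysed here.

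The members, the gene lists, the tests and the alternatives were chosen with earlier results of these data known. Named were all members, ST6GAL1, the 2 called genes with the smallest adjusted p of each list in each line, and the 3 genes most like each member. LGALSL, LGALS4 and B4GALT5 were named after their values were seen.

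Tests were run in R 4.3.3 on the counts with edgeR 4.0.16 (filterByExpr, TMM, robust quasi-likelihood test, Benjamini-Hochberg adjustment over all genes tested), with a fit for each line and a fit of 11 libraries in 4 groups for differences between lines. Normalized CPM came from the fit of the line. CPM per kilobase came from the joint fit, over the union of GENCODE v44 exons, where RefSeq exons had been planned. Standard errors were derived from the F statistic. For genes at 0 no fold was formed. Alternatives were limma-voom 3.58.1, DESeq2 1.42.0, RLE factors, other filters and thresholds, a joint fit, the replicate number as a block, each library left out in turn and, added after the values were seen, the libraries of the block fit without the block and a GC offset (a lowess curve of span 0.3 per library on longest-transcript GC). The scripts were tested on simulated data. No pair of replicate libraries agreed within sampling noise. Depth was 13194485 to 18201359 counts per library, and DU145 OE has 2 libraries, which limits its precision. Experiments of the study other than RNA sequencing were not analysed here. The result of 1 marker gene is not reported here.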

Additional observations from a re-analysis of the deposited data

Results flagged for a closer look

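The change of LGALS1 with ST6GAL1 overexpression differed between the lines by a test of the difference itself. From PC3 control to PC3 OE, the normalized CPM of LGALS1 went from 404.3 ± 9.75 to 402.5 ± 2.78 (SD, n = 3 each), and in DU145 from 286.5 ± 11.8 (SD, n = 3) to 166.6 ± 26.9 (SD, n = 2). The difference in log2 fold change, DU145 minus PC3, was -0.779 (edgeR quasi-likelihood adjusted p = 1.48e-05). Leaving out single libraries gave values from -0.97 to -0.63, the widest values being those without a DU145 OE library, and -0.54 with the GC offset. The part of GC content in this difference beyond that offset was not tested. ST6GAL1 was at 32.6 normalized CPM in PC3 OE and 322.9 in DU145 OE, so cell line and ST6GAL1 level cannot be told apart here.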

How the results depend on the processing

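In PC3 and DU145 the calls of LGALS3BP (higher in both) and LGALS1 (lower in DU145) held with the other tools, normalizations, filters, joint fit, replicate block and GC offset and with each library left out. Across the alternatives other than leaving out a library, the log2 fold change of LGALS3BP was 0.90 to 0.94 in PC3 and 1.38 to 1.66 in DU145, and that of LGALS1 in DU145 -0.80 to -0.59. Without a fold change threshold 5056 genes were called in PC3 and 2747 in DU145, LGALS8 was called at 0.523 and 0.528, and LGALS1 (-0.489) and LGALS3 (0.478) were called between the control lines. With that threshold 1304 genes differed in response between the lines. The difference between the lines for LGALS8, 0.00, was 0.002 with DESeq2, 0.001 with RLE factors, 0.035 with the replicate block and 0.033 on the same libraries without the block. For LGALS3BP that difference was 0.458 with the replicate block (edgeR adjusted p = 0.0214) and 0.775 with the GC offset, and both passed, while the libraries of the block without it gave 0.479 (edgeR adjusted p = 0.174), which did not. With the GC offset the control lines differed by 0.021 for LGALS1 and -0.116 for LGALS8, the signs turned. The cause of these changes was not tested. Over the longest transcript in place of all exons the levels in PC3 and DU145 control were 633.6 and 451.4 CPM per kilobase for LGALS1, 37.02 and 51.54 for LGALS3, 5.778 and 6.062 for LGALS8, and 10.22 and 4.266 for LGALS3BP, since the length is smaller.

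Leaving out 1 library at a time, 670 to 798 genes were called in PC3, 830 to 2072 in DU145 (2072 without DU145 OE replicate 3), 2287 to 5161 as differing between the lines (5161 without the same library) and 9527 to 9930 between the controls. The log2 fold changes ranged in PC3 from -0.026 to 0.005 for LGALS1, whose sign turned at 0.004 and 0.005 without control replicate 2 or 3, and from 0.484 to 0.573 for LGALS8, and in DU145 from 0.439 to 0.608 for LGALS8. In the difference between the lines they ranged from -0.086 to 0.065 for LGALS8 and from 0.21 to 0.742 for LGALS3BP. Where 1 DU145 OE library remained, it was assumed to vary like the other groups. Whether the replicate numbers pair the samples was not settled. Deviations from group means correlated at -0.002, 0.075 and 0.061 between same-numbered PC3 libraries and at 0.087 and 0.293 in DU145. In both lines some library correlated best with another number, in DU145 OE 2 with control 1 (0.239), which has no same-numbered OE library. With only 2 OE libraries in DU145, their coefficients with a given control are equal and opposite, which cannot decide pairing. The replicate block, on libraries with a partner, called 740 genes in PC3 and 1505 in DU145, against 940 for the same DU145 libraries without it and changed no member's call within a line.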
